A study of Mus musculus with 2 samples.

Results

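Granzyme-positive effector CD8 T cells were studied in the lungs of adult mice with and without GFI1. They are here the T cells that carried RNA of CD8 and at least 2 of 6 genes of cytotoxic effector cells. A cell counted as a member if it had at least 500 UMIs (unique molecular identifiers, 1 per counted RNA molecule), at least 200 genes and at most 20% mitochondrial UMIs, at least 2 UMIs of Cd3d, Cd3e and Cd3g together, and at least 1 UMI of Cd8a or Cd8b1. It had to be without any UMI of Trdc, Cd4, Ebf1, Csf1r, Mertk and Ptprb, and to show at least 2 of Gzma, Gzmb, Gzmk, Klrg1, Cx3cr1 and Fasl. These gates found 223 of 29837 kept cells: 98 of 10495 from the GFI1 KO lung and 125 of 19342 from the GFI1 WT lung. Since the members were chosen by their RNA, the genes of the rule and comparisons of members with other cells are descriptions.

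The GFI1 KO mice carried a germline knockout, so GFI1 was missing in every cell type and not only in T cells, and GFI1 WT mice were the controls. The strain background was C57BL6/J. Lungs were dissociated with enzymes, live cells were sorted without selection for T cells, and 3′ RNA libraries were made together with 18 antibody-derived tags. Most of the tags report surface proteins, and some are isotype controls, which show background. Each genotype had 1 library, named in its label for a single mouse (the study made further samples, not analysed here), so a difference between genotypes and one between these mice or libraries cannot be told apart, and no test between genotypes was possible. All 95% intervals below cover counting error only.

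CD8 T cells recognise peptides on MHC class I and, once activated, become effector cells that kill with granzymes and perforin and secrete interferon gamma and chemokines. T-bet (Tbx21) and ZEB2 are known to drive the terminal effector state, marked by KLRG1 and CX3CR1, while TCF1 (Tcf7) and the IL-7 receptor (Il7r) mark naive and memory cells. GFI1 is a zinc finger protein that represses transcription through bound chromatin enzymes and recognises DNA with the core letters AATC.

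The cells carried the RNA of their name. An alpha-beta T cell receptor constant gene (Trac, Trbc1 or Trbc2) was found in 97 of 98 GFI1 KO members and 124 of 125 GFI1 WT members, and Nkg7, a granule membrane protein of killer cells, in 97 and 124. Ccl5, a chemokine stored by effector and memory CD8 T cells, was found in 92 and 119. A granzyme of the rule was present in 94 GFI1 KO and 113 GFI1 WT members. The other 4 and 12 members entered without one, through Klrg1, Cx3cr1 and Fasl, so the name did not hold for them. The CD8a antibody tag, which the rule did not use, reached 30 UMIs on 98.0% of GFI1 KO and 100% of GFI1 WT members.

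Few B cells of the same libraries, which should lack these genes, had a UMI of them. In B cells Gzma had a UMI in 1.77% of GFI1 KO and 5.13% of GFI1 WT cells, Gzmb in 0.746% and 2.19%, and Ccl5 in 2.33% and 8.20%. B cells had medians of 4197 and 4538 UMIs, against 5867.5 and 5987 in GFI1 KO and GFI1 WT members. Members' depth was alike under both labels, with ranges of 2793 to 28834 and 2100 to 36500 UMIs, and mitochondrial UMIs had medians of 3.23% and 2.55%. No member's barcode occurred among the kept cells of the other library, although 74 barcodes were shared by kept cells of both.

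RNA of NK cells and of endothelial, epithelial and stromal cells was higher in the GFI1 WT members. Markers of natural killer (NK) cells summed to 251 CPM in GFI1 KO and 849 in GFI1 WT members, with Klrb1c and Tyrobp as their most abundant genes, and 4 of the 6 markers with enough UMIs were at least 2-fold lower in GFI1 KO. Here and below, levels are in CPM, the UMIs of a gene per 1000000 UMIs of all genes except ribosomal, mitochondrial and Gm- genes, summed over the members of a label. Ncr1, which defines NK cells, was at 0 in the GFI1 KO members and was seen in 12 GFI1 WT members. Markers of endothelial, epithelial and stromal cells summed to 80.7 and 396, led in GFI1 WT by Scgb1a1, the secretory protein of club cells, at 138. Scgb1a1 was spread over 63 of the 125 GFI1 WT members and stood at 177 in the NK cells of the same library, against 16.5 in GFI1 KO members and 15.3 in GFI1 KO NK cells. B cell markers summed to 134 and 187, monocyte and macrophage markers to 974 and 933, CD4 T cell markers to 776 and 561, neutrophil markers to 73.4 and 38 and red cell markers to 1.84 and 8.14. Scrublet called 1 GFI1 KO member (1.02%) and 11 GFI1 WT members (8.8%) doublets, against 3.30% and 5.88% of all kept cells. Their part in other differences was not tested beyond leaving such cells out.

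Gfi1 RNA did not separate the labels: it had 10 UMIs in GFI1 KO and 14 in GFI1 WT members, 18.4 and 19 CPM, with a ratio of 0.967 (95% interval 0.384 to 2.34). A 3′ tag can be read from a transcript whose coding part is disrupted, so this level does not check the genotype.

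Effector cells made up a larger part of the CD8 T cells of the GFI1 KO lung. They were 98 of 367 CD8 T cells, or 26.7% (95% Clopper-Pearson interval 22.2% to 31.5%), against 125 of 1127, or 11.1% (9.32% to 13.1%), in the GFI1 WT lung. The shares differed by 15.6 percentage points (10.7 to 20.8). Of all T cells the members were 11.6% in GFI1 KO and 4.31% in GFI1 WT, while CD8 T cells were 43.4% and 38.9% of T cells. Of all kept cells the members were 0.934% and 0.646%.

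The number of effector genes per cell showed where the shares differed. Of the GFI1 KO CD8 T cells, 50.4% had none of the 6 genes and 22.9% had 1, against 76.1% and 12.8% in GFI1 WT. Exactly 2 genes were seen in 11.2% and 3.19%, and all higher numbers together in 15.5% and 7.90%. Cells just inside the rule, with exactly 2 genes, were thus 41.8% of the GFI1 KO and 28.8% of the GFI1 WT members, whereas members with 4 or more genes were 42.9% and 46.4%. Just outside the rule, the 84 GFI1 KO cells with 1 gene carried Fasl in 41, Gzmb in 19, Gzma in 16 and Cx3cr1 in 8. The 144 GFI1 WT cells with 1 gene carried Fasl in 51, Gzma in 44, Gzmb in 24, Cx3cr1 in 22, Gzmk in 2 and Klrg1 in 1. A count of detected genes depends on depth. With each cell thinned to 1500 UMIs the shares were 14.7% and 6.65%, a difference of 8.06 points, and with at least 3 genes asked for they differed by 7.63 points (3.68 to 12). Without the doublets that Scrublet called the difference was 16.2 points.

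**Figure D1:**
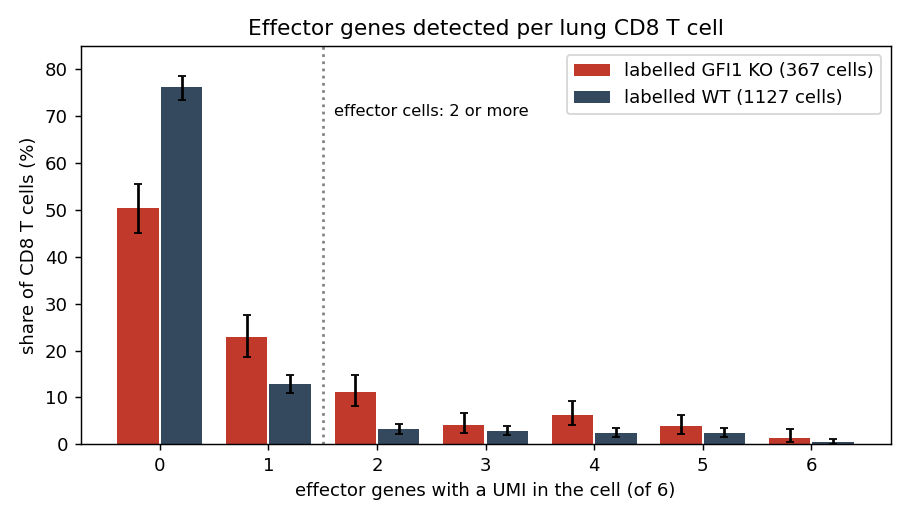
Percent of CD8 T cells (y axis) by the number of the 6 effector genes with a UMI (x axis) in the GFI1 KO library (367 cells) and the GFI1 WT library (1127 cells); bars are shares and whiskers are 95% Clopper-Pearson intervals. GFI1 KO was lower at no effector gene (50.4% against 76.1%) and higher at 1 (22.9% against 12.8%) and 2 genes (11.2% against 3.19%).

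The 6 genes of the rule differed in how many members carried them. Gzmb, the granzyme that cleaves caspases, was found in 89 of 98 GFI1 KO members (90.8%) and 98 of 125 GFI1 WT members (78.4%). Gzma, a tryptase-like granzyme, was found in 55.1% and 70.4%. Gzmk, a granzyme of memory-like effector cells, was found in 34.7% and 29.6%, and Fasl, the death ligand, in 76.5% and 71.2%. Klrg1, an inhibitory receptor of terminal effector cells, was found in 25.5% and 40% and Cx3cr1, the receptor for fractalkine, in 42.9% and 57.6%. Members with Klrg1 or Cx3cr1 were 53.1% of GFI1 KO and 73.6% of GFI1 WT members, and members with Gzma and Gzmb together 51.0% and 63.2%. Members that entered through Gzmb and Fasl alone lack the other genes by definition, and without them most of these gaps were smaller or turned. Gzma was then found in 75% of GFI1 KO and 74.6% of GFI1 WT members, Cx3cr1 in 58.3% and 61.0%, Klrg1 in 34.7% and 42.4%, and Gzmk in 47.2% and 31.4%. Klrg1 or Cx3cr1 was found in 72.2% and 78.0%, and Gzma with Gzmb in 69.4% and 66.9%. In B cells Klrg1 was seen in 0.280% and 0.817% of cells, Fasl in 0.373% and 1.81% and Gzmk in 0.186% and 0%, whereas Cx3cr1 was seen in 9.97% and 4.05%.

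Within each library the members carried more RNA of many effector genes. Against CD8 T cells with none of the 6 genes, 194 of 5127 genes with enough UMIs were at least 2-fold higher in the members of both labels (3.78%), and 115 (2.24%) had a ratio of at most 0.5. Ccl4, a chemokine of activated T cells, was 22.8-fold higher in GFI1 KO members and 60.8-fold higher in GFI1 WT members. Zeb2 was 18.6-fold and 44.9-fold higher, Ifng (interferon gamma) 17.8-fold and 45.7-fold, and Tbx21 3.71-fold and 25.1-fold. Proliferation genes were among the highest too, with Mki67 6.55-fold and 13.6-fold higher, and 7 of 8 cycling genes past 2-fold under both labels. Of the other lists, 5 of 10 granule and killing genes, 5 of 8 killer lectin and related receptors, 3 of 5 chemokines and cytokines and 5 of 12 effector transcription factors were past 2-fold higher under both. Of the naive and memory-precursor genes none was 2-fold higher and 8 of 17 had a ratio of at most 0.5. Ccr7, which takes naive T cells to lymph nodes, was at ratios of 0.228 and 0.237, Tcf7 at 0.394 and 0.446, and Dapl1, a marker of naive CD8 T cells, at 0.164 and 0.145.

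For several effector genes the distance between members and the other CD8 T cells was smaller in GFI1 KO, where the other cells had more of the RNA than in GFI1 WT. Ccl5 stood at 2415 CPM in GFI1 KO cells with none of the 6 genes and at 399 in their GFI1 WT counterparts, whereas the members had 15472 and 17710. Gzmm, a granzyme outside the rule, stood at 82.8 and 7.21 in these cells, and Nkg7 at 740 and 408.

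Between the labels most genes of the members were alike. Of 4985 genes with at least 50 UMIs over both labels, 90 (1.81%) were at least 2-fold higher in GFI1 KO and 151 (3.03%) at least 2-fold lower, and the median log2 ratio was -0.04. These shares are the background for the gene groups that follow.

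Among granule and killing genes the difference depended on the gene. Of the 10 outside the rule with at least 50 UMIs, 1 was past 2-fold higher, none was past 2-fold lower, and the median log2 ratio was 0.23. Gzma, which the rule used, stood at 1664 CPM in GFI1 KO and 2642 in GFI1 WT (ratio 0.630, 95% interval 0.582 to 0.682), but the ratio was 0.935 (0.863 to 1.01) without members that entered through Gzmb and Fasl alone. Per cell, Gzma had a median of 2.74 UMIs per 10000 in GFI1 KO and 14.2 in GFI1 WT. Gzmb went the other way, with 934 and 636 (ratio 1.47, 1.29 to 1.67). Gzmk stood at 128 and 97.6, and Fasl at 312 and 248. Among genes outside the rule, Prf1, the pore-forming perforin, stood at 259 and 290 (0.892, 0.716 to 1.11), which is within counting error. Nkg7 stood at 2364 and 1850 (1.28, 1.18 to 1.38). The gene past 2-fold was Gzmm, which stood at 207 and 89.5 (2.32, 1.70 to 3.19), and at a ratio of 1.40 without members that entered through Gzmb and Fasl alone.

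Killer lectin and related receptors differed between the labels in both directions. Most of them are encoded side by side in the NK gene complex on chromosome 6 and are carried by NK cells and by effector and memory CD8 T cells. Of 13 genes in this group outside the rule with at least 50 UMIs, 4 were past 2-fold higher (Klrc1, Klrc2, Klrk1 and Cd160) and 5 past 2-fold lower (Klra4, Klra7, Klra8, Tyrobp and Fcer1g). The median log2 ratio was -0.10. Members of the Klra and Klrc families are close copies of each other, so reads can be split between them.

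Klrc1 encodes NKG2A, an inhibitory receptor that binds Qa-1 together with CD94 (Klrd1). It stood at 587 CPM in GFI1 KO members and 160 in GFI1 WT members (ratio 3.67, 2.96 to 4.57), and was found in 87 of 98 and 49 of 125 members. In B cells 0.652% and 0.671% of cells had a Klrc1 UMI. The difference was not limited to effector cells: in CD8 T cells with none of the 6 genes Klrc1 stood at 114 and 12.1 (9.41, 6.58 to 13.6), and in NK cells at 424 and 228. Klrc2, which encodes the activating NKG2C, stood at 248 and 86.8 (2.85, 2.10 to 3.91) in 58 and 35 members. Klrk1, the activating receptor NKG2D, stood at 620 and 296 (2.10, 1.76 to 2.50), and its log2 ratio was 0.98 with all genes in the denominator. In CD8 T cells with none of the 6 genes Klrc2 stood at 59.8 and 3.35 and Klrk1 at 113 and 25. Cd160, a receptor for HVEM, stood at 105 and 33.9 (3.09, 1.90 to 5.15). The shared partner Klrd1 stood at 479 and 513 (ratio 0.934), and Klre1 had a ratio of 1.03.

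Because GFI1 binds DNA, the promoters of the 3 lectin receptor genes that were past 2-fold higher and neighbour each other are shown, as RefSeq gives them on GRCm38.p6, from 250 bases before to 50 bases after the start of transcription. The genes were chosen after their values were seen. Letters matching AATCA on either strand, which holds the GFI1 core, are in capitals. The promoters lie on the minus strand, Klrc1 at chr6:129678924-129679223, Klrc2 at chr6:129660507-129660806 and Klrk1 at chr6:129623815-129624114, and RefSeq lists 2 promoters for Klrc2, of which 1 is shown.
Klrc1: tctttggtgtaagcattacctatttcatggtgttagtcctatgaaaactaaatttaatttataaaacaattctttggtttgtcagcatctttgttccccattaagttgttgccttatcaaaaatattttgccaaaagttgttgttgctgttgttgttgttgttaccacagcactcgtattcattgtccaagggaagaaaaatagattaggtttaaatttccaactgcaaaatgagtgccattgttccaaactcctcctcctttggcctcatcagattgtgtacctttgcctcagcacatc
Klrc2: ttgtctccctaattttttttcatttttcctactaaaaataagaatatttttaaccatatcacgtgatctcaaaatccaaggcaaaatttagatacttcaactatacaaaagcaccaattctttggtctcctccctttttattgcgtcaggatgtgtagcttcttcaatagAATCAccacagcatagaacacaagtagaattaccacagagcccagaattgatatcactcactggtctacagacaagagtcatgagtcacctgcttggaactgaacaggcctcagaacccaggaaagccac
Klrk1: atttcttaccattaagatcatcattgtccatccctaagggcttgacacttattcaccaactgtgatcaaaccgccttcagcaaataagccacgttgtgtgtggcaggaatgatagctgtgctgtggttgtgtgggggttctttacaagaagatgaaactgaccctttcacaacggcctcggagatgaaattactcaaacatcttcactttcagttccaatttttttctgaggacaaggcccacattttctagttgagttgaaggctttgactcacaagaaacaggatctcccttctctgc
Klrc2 held 1 match to AATCA, and the Klrc1 and Klrk1 windows held 0. The shorter core AATC was not marked or counted, and it also occurs in the Klrc1 window, on the other strand. AATCA occurred in 12162 of 32851 mouse promoters of the same length (37.0%), so a match is common. It is a description of letters and shows no binding.

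Klra4, Klra7 and Klra8, of the family that encodes the Ly49 receptors for MHC class I, were lower in GFI1 KO members, each resting on few cells. Other Klra genes had fewer than 50 UMIs, and some of these were higher in GFI1 KO, such as Klra1 with 20 and 9 UMIs and Klra6 with 7 and 0. Klra4 was at 0 in GFI1 KO members and at 142 CPM in GFI1 WT members, where 12 cells carried it. The GFI1 WT level was 25.9-fold above that of 3 UMIs in GFI1 KO, and the lower 95% limit of the fold was 20.7. Klra8 stood at 9.18 and 103, in 1 and 10 cells, and its log2 ratio reached -0.39 under an alternative, short of 2-fold. Klra7 stood at 16.5 and 58.3, but its log2 ratio was 2.48 without cells with Cd79a, Ms4a1 or Ncr1. Tyrobp and Fcer1g, signalling adaptors of NK and myeloid cells, stood at 60.6 and 202 and at 49.5 and 167. Klra4, Klra8 or Ncr1 was found in 1 GFI1 KO member (1.02%) and 17 GFI1 WT members (13.6%). When these cells were left out, the log2 ratios of Tyrobp and Fcer1g were 0.87 and 0.90. In NK cells Klra4 stood at 1316 and 1386 and Klra8 at 978 and 1125.

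Cytokine and chemokine RNA was led by Ccl5 under both labels. Of 5 genes in this group with at least 50 UMIs, 1 (Ltb) was past 2-fold higher and none past 2-fold lower. Ccl5 stood at 15472 CPM in GFI1 KO and 17710 in GFI1 WT members (ratio 0.874, 0.850 to 0.898), and Ccl4 at 288 and 313. Ifng stood at 123 and 70.5 (1.74, 1.20 to 2.55), in 24 and 29 members. Ltb, which encodes lymphotoxin beta, stood at 411 and 183 (2.25, 1.81 to 2.80). Some genes were too sparse for the 50-UMI floor: Xcl1, a chemokine that attracts cross-presenting dendritic cells, had 21 and 5 UMIs, and Tnf had 7 and 4.

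Zeb2 and Tbx21, the factors of terminal effector cells, were lower in GFI1 KO members. Zeb2 stood at 363 CPM in GFI1 KO and 774 in GFI1 WT members (ratio 0.469, 0.397 to 0.552), and had a UMI in 51 of 98 and 97 of 125 members. Without members that entered through Gzmb and Fasl alone, the ratio was 0.663 and no longer past 2-fold. The difference was not seen in CD8 T cells with none of the 6 genes, where Zeb2 was rare at 19.5 and 17.2 (ratio 1.13). In NK cells the ratio was 0.406. Tbx21 stood at 132 and 245 (0.538, 0.404 to 0.711), short of 2-fold. Irf8 was past 2-fold lower at 11.0 and 199 in 6 and 18 cells, but its log2 ratio was 0.15 when cells with Klra4, Klra8 or Ncr1 were left out. Of 14 effector transcription factors with at least 50 UMIs, none was past 2-fold higher and 2 (Zeb2 and Irf8) were past 2-fold lower. Eomes, the T-bet relative, had a ratio of 0.752 (0.510 to 1.1), Id2 of 0.939, Prdm1 (BLIMP1) of 0.902, Runx3 of 0.721 and Bhlhe40 of 1.23.

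Of the naive and memory-precursor genes, Il7r and Bcl2 were higher in GFI1 KO members, short of 2-fold. Il7r stood at 1079 CPM in GFI1 KO and 552 in GFI1 WT members (ratio 1.95, 1.72 to 2.22) and was found in 77 of 98 and 52 of 125 members. In B cells Il7r was found in 6.99% and 6.45%. Bcl2, the survival protein that IL-7 signalling maintains, stood at 1367 and 753 (1.82, 1.63 to 2.03). The Bcl2 ratio was 1.37 without members that entered through Gzmb and Fasl alone. Its lowest log2 ratio over the alternatives was 0.18. In CD8 T cells with none of the 6 genes the ratios were smaller, 1.23 for Il7r and 1.11 for Bcl2. Ccr7 stood at 182 and 213 (0.853), Tcf7 at 189 and 243 (0.779) and Lef1 had a ratio of 0.942. Bach2, a repressor that restrains effector differentiation, stood at 573 and 963 (0.595, 0.519 to 0.680), and the ratio was 0.654 in CD8 T cells with none of the 6 genes. None of the 16 naive and memory-precursor genes with at least 50 UMIs was past 2-fold in either direction, and the median log2 ratio was -0.06.

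Among circulation and homing genes outside the rule, 2 of 14 were past 2-fold lower in GFI1 KO and none past 2-fold higher. Itga4, the alpha chain of the integrin VLA-4, stood at 367 CPM in GFI1 KO and 994 in GFI1 WT members (ratio 0.369, 0.314 to 0.432), in 58 of 98 and 115 of 125 members. The ratio was 0.529 without members that entered through Gzmb and Fasl alone. Its level was lower too in CD8 T cells with none of the 6 genes (252 and 560, ratio 0.449) and in NK cells (ratio 0.333). Its partner Itgb1 stood at 354 and 646 (0.549, 0.462 to 0.650), whereas the ratio was 1.5 in CD8 T cells with none of the 6 genes. S1pr5, an exit receptor of terminal effector and NK cells, was past 2-fold lower at 33.0 and 78.7 (0.420, 0.233 to 0.723), with a log2 ratio of -0.57 when at least 3 effector genes were asked for. S1pr1, the exit receptor of T cells at large, had a ratio of 1.02, and Cxcr3, which follows interferon-induced chemokines, of 1.22. Ccr2 stood at 347 and 224 (1.55, 1.25 to 1.92).

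Of 5 tissue residency genes with at least 50 UMIs, 2 were past 2-fold higher. Cxcr6, a receptor that holds T cells in the lung, stood at 171 and 67.8 (2.52, 1.77 to 3.62), and its ratio was 3.52 in CD8 T cells with none of the 6 genes. Cd69, an activation molecule that blocks exit, stood at 196 and 84.1 (2.34, 1.69 to 3.25), but its ratio was 1.97 without members that entered through Gzmb and Fasl alone, and its log2 ratio was 0.51 after thinning. Itgae, the CD103 integrin chain, was sparse, with 9 and 29 UMIs. Among 9 inhibitory and costimulatory receptors, 2 were past 2-fold lower. Entpd1, the ectoenzyme CD39, stood at 99.1 and 331 (0.299, 0.219 to 0.404), in 22 and 77 members. Nr4a2, an orphan nuclear receptor induced by antigen receptor signals, stood at 78.9 and 210 (0.375, 0.261 to 0.529), with a log2 ratio of -0.91 when at least 3 effector genes were asked for. Pdcd1 (PD-1) had a ratio of 1.08 and Icos of 1.27.

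Genes of innate-like memory T cells were higher in part. Of 10 with at least 50 UMIs, 3 were past 2-fold higher and none lower, with a median log2 ratio of 0.63. Il18r1, a chain of the IL-18 receptor, stood at 650 and 262 (2.48, 2.08 to 2.97), and its ratio was 3.61 in CD8 T cells with none of the 6 genes. Its partner Il18rap had a ratio of 0.655. Cd7 stood at 308 and 119 (2.58, 1.98 to 3.38). The third, Zbtb16 (PLZF), rested on 4 and 5 cells, and its log2 ratio was -1.32 without members that entered through Gzmb and Fasl alone. Ly6c2, a surface protein of memory CD8 T cells, stood at 1378 and 711 (1.94, 1.73 to 2.17).

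**Figure D2:**
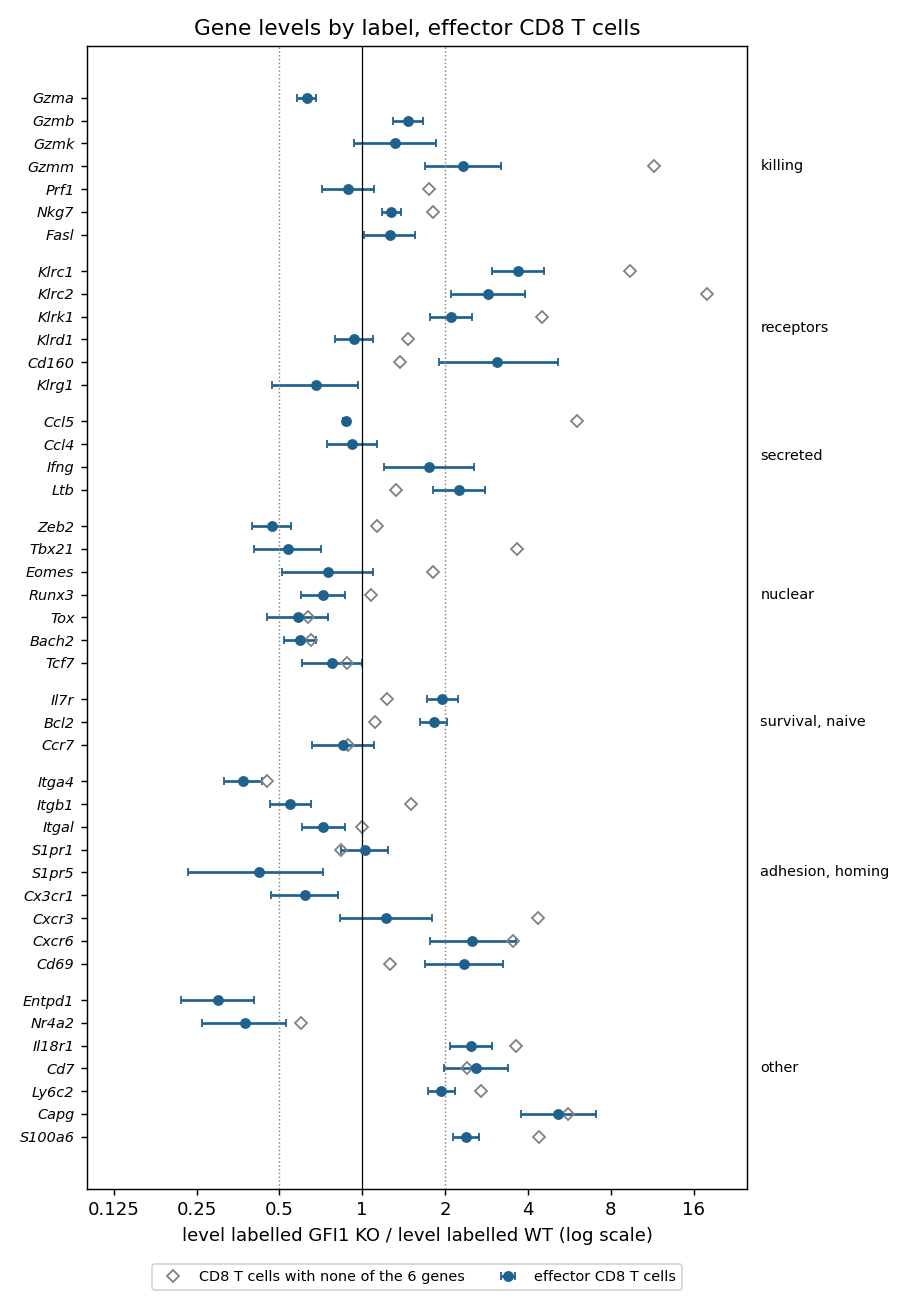
Ratio of summed levels, GFI1 KO over GFI1 WT members, on a log axis (x axis), for listed genes grouped by role (y axis); filled points are ratios in the members with 95% intervals for counting error, open diamonds the ratios in CD8 T cells with none of the 6 genes (genes with at least 50 UMIs there), and dotted lines mark 2-fold. In the members, Klrc1 (3.67), Klrc2 (2.85) and Il18r1 (2.48) lie above 1, Zeb2 (0.469), Itga4 (0.369) and Entpd1 (0.299) below it, and Prf1 (0.892) spans it.

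Other groups of genes held none past 2-fold in the main setting. These were the 3 alpha-beta receptor genes (Trac 563 and 450 CPM, Trbc2 1635 and 1366), the 10 cycling genes (Mki67 ratio 1.25, Top2a ratio 1.39), the 8 interferon-response genes and the 9 MHC class I genes (B2m ratio 1.06) with at least 50 UMIs. The 9 GFI1 partners and targets named by the study that had at least 50 UMIs held none either. Under alternatives some genes did pass 2-fold. The log2 ratio of Pclaf reached 2.03, that of Irf7 1.27, that of Isg15 1.15, that of Cdk1 1.02 and that of Rcor1 -1.22. For Maf, which the paper proposes as a direct target of GFI1, it ran from 0.28 to 1.07 and was thus above 0 throughout. The log2 ratio of Rrm2 ran from -1.02 to 1.03. Without members that entered through Gzmb and Fasl alone the ratios were 0.623 (0.416 to 0.913) for Mki67 and 0.998 for Top2a. A UMI of Mki67 or Top2a was found in 16.3% of GFI1 KO and 22.4% of GFI1 WT members. Of 13 immediate-early and heat-shock genes, 2 were past 2-fold higher, Hspa1a and Hspa1b, with 93.9% and 90.9% of their GFI1 KO UMIs in a single cell.

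Over all genes, the gene furthest above 1 was Scart1, a scavenger receptor known from IL-17-producing gamma-delta T cells. It stood at 396 CPM in GFI1 KO and 6.78 in GFI1 WT members (ratio 58.5, 24.7 to 182), and was found in 30 of 98 and 4 of 125 members. B cells had a Scart1 UMI in 0.373% and 0.0583% of cells. Scart1 was not particular to effector cells, since it stood at 510 and 5.41 in CD8 T cells with none of the 6 genes, in 80 and 12 cells, and at 760 and 70.7 in those with 1. In T cells with Trdc, the gamma-delta receptor constant gene, it stood at 2745 and 163. Of the other genes of the gamma-delta and IL-17 list only Maf also had 50 UMIs. Il23r had 7 and 1 UMIs.

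Genes above 1 were ranked by the lower interval limit of the ratio. The next genes spread over at least 10 cells, with less than 50% of their UMIs in 1 cell, were Capg, Jaml and App. This condition of spread was chosen after the values were seen. Capg, an actin capping protein, stood at 369 and 71.9 (ratio 5.13, 3.77 to 7.08), in 74 and 21 members. Its ratio was 5.62 in CD8 T cells with none of the 6 genes. Of its GFI1 WT UMIs in the members, 41.5% lay in a single cell, and its log2 ratio ran from 2.15 to 3.51 over the alternatives. Jaml, an adhesion molecule of leukocytes that binds epithelium, stood at 145 and 25.8, and App at 160 and 31.2. S100a6, a calcium-binding protein, stood at 1793 and 753 (2.38, 2.14 to 2.65) in 90 and 85 members. Lgals3 (galectin-3) stood at 554 and 179, and Nfkbia, the inhibitor of NF-kappaB, at 431 and 160. Ifitm1 ranked high as well, but rested on 4 GFI1 KO cells.

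At the other end, genes were ranked by the upper interval limit of the ratio. Of the 15 with the lowest limits, 7 had at least 50% of their UMIs in a single GFI1 WT cell. Mgp, Hdac9, Igfbp5, Hhip, Col3a1, Pdzrn3 and Gsn, several of them genes of fibroblasts and other stromal cells, were of this kind. Mgp was at 0 in GFI1 KO members, and 72.1% of its GFI1 WT UMIs lay in a single cell. Genes that were spread over the GFI1 WT members included Adk, which encodes adenosine kinase, at 53.2 and 255 (ratio 0.209), in 18 and 45 members. Frmd6 stood at 12.8 and 86.8, in 5 and 41 members. Inpp4b, a lipid phosphatase, stood at 178 and 559 (0.319), with a ratio of 0.577 in CD8 T cells with none of the 6 genes. Over the alternatives its log2 ratio ran from -2.11 to -0.99, the latter short of 2-fold. Myb, a factor of progenitor and stem-like cells, stood at 25.7 and 115 (0.223), and its log2 ratio ran from -2.81 to -1.09.

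**Figure D3:**
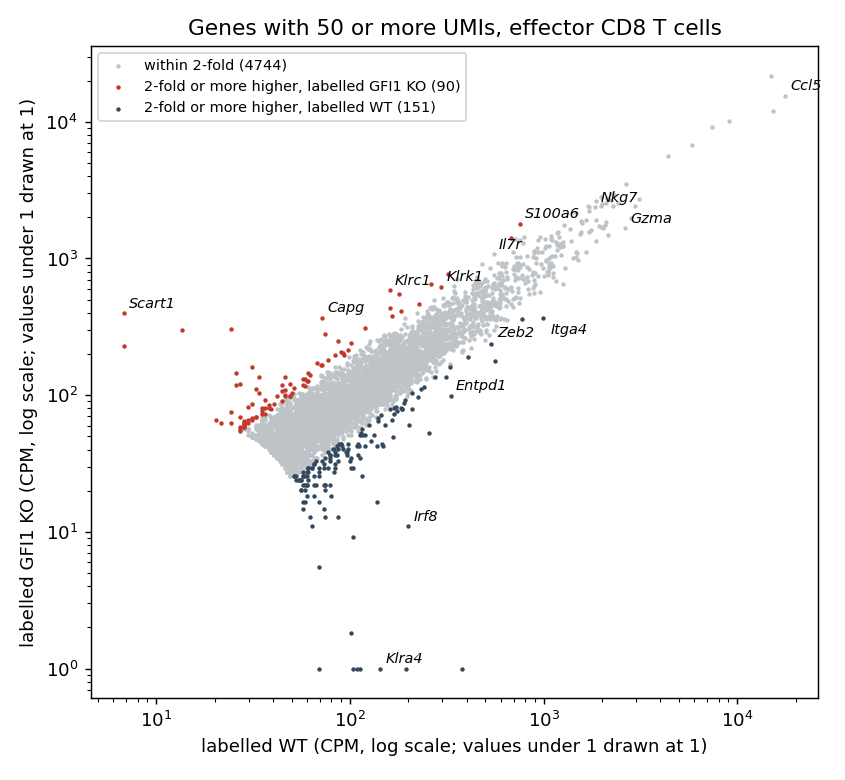
Level of each gene with at least 50 UMIs in GFI1 WT members (x axis) and GFI1 KO members (y axis), both in CPM on log axes, with values under 1 drawn at 1; each point is a gene, coloured where it is past 2-fold. Of 4985 genes 90 are past 2-fold higher in GFI1 KO, Scart1 (396 against 6.78) farthest out, and 151 are past 2-fold lower, among them Itga4 (367 against 994).

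The members were not uniform, and Gzmk and Cx3cr1 split them. Of the GFI1 KO members 20 (20.4%) had Gzmk only, 28 (28.6%) Cx3cr1 only, 14 (14.3%) both and 36 (36.7%) neither. Of the GFI1 WT members 17 (13.6%) had Gzmk only, 52 (41.6%) Cx3cr1 only, 20 (16%) both and 36 (28.8%) neither. A missing UMI does not show that a gene is off, and the members with neither had median depths of 9872 and 6622 UMIs.

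Some differences between the labels had the same direction in all 4 classes. The Klrc1 ratio was 2.61 with Gzmk only, 3.87 with Cx3cr1 only, 3.14 with both and 6.74 with neither. For Entpd1 the ratios were 0.417, 0.127, 0.208 and 0.461, and for Cxcr6 they were 3.05, 2.03, 4.44 and 2.95. Itga4 was below 1 in each, at 0.636, 0.567, 0.427 and 0.132.

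For Zeb2 the size of the difference varied with the class. Its levels in members with Gzmk only were 373 CPM in GFI1 KO and 450 in GFI1 WT (ratio 0.828, 0.525 to 1.30). In members with both genes they were 729 and 750 (0.972, 0.666 to 1.40), and in members with Cx3cr1 only 710 and 985 (0.720). In members with neither they were 103 and 660 (0.156, 0.0985 to 0.237). The ratio was thus lowest in members with neither gene, and the intervals of members with Gzmk only and with both included 1. Gzma, a gene of the rule, stood in GFI1 KO at 343 in members with neither and 5021 in members with both, whereas these classes stood at 1953 and 4739 in GFI1 WT.

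**Figure D4:**
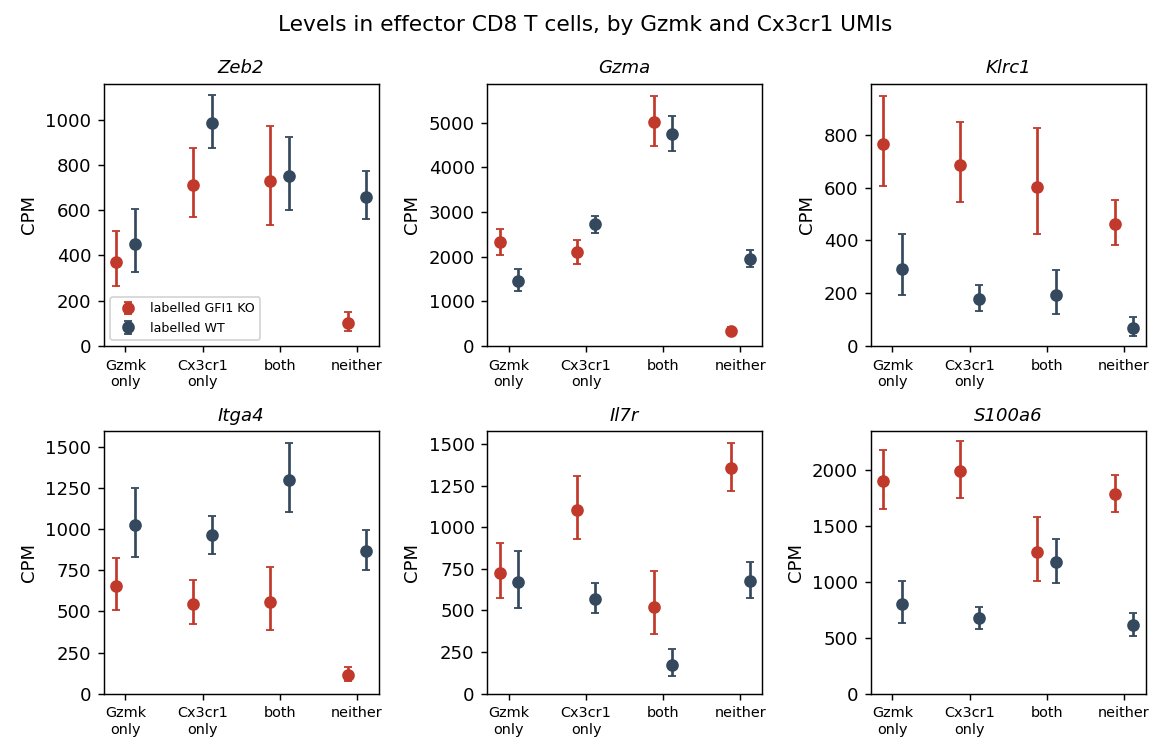
Levels of Zeb2, Gzma, Klrc1, Itga4, Il7r and S100a6 in CPM (UMIs per 1000000, y axis) in members with Gzmk only, Cx3cr1 only, both or neither (x axis), for GFI1 KO and GFI1 WT; points are summed levels and whiskers are 95% Poisson intervals. Klrc1 is higher in GFI1 KO in each class (462 against 68.5 with neither), and Zeb2 is far lower with neither (103 against 660) but close with both (729 against 750).

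Of the 36 GFI1 KO members with neither gene, 26 had met the rule through Gzmb and Fasl alone, a class chosen after its values were seen. By the rule they hold no UMI of Gzma and Klrg1 either. These cells were 26 of 98 GFI1 KO members (26.5%, 18.1% to 36.4%) and 7 of 125 GFI1 WT members (5.6%, 2.28% to 11.2%). The GFI1 KO cells of this kind were deep, with a median of 10582.5 UMIs against 5044 in the other GFI1 KO members, and 6 of the 26 rested on 1 UMI of each gene. All 26 had an alpha-beta receptor constant gene, 25 had a CD8a tag of 30 UMIs, all 26 had Il7r, 22 had Klrc1, 16 had Scart1 and 5 had Zeb2. Compared with the other GFI1 KO members, Zeb2 stood at 65.4 against 535 CPM (ratio 0.122, 0.0639 to 0.214), Itga4 at 60.3 against 543, Prf1 at 101 against 350 and Ccl5 at 6432 against 20667. Ccr7 stood at 307 against 110 and Tcf7 at 292 against 130. The granzyme Gzmm was higher too, at 362 against 118, as were Mki67 (417 against 104) and Top2a (634 against 246), with Mki67 or Top2a in 7 of the 26 cells.

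Without these cells the share of effector cells was 19.6% of CD8 T cells in GFI1 KO and 10.5% in GFI1 WT, a difference of 9.15 points (4.76 to 13.9). In the remaining 72 GFI1 KO and 118 GFI1 WT members, Klrc1 (ratio 3.62), Klrk1 (2.50), Capg (5.95), S100a6 (2.50) and Il7r (1.68) were still higher in GFI1 KO. Ifng was then 2.01-fold higher. Gzmb was 2.03-fold higher (1.77 to 2.32), but it is a gene of the rule and helped to choose the cells left out. Those GFI1 KO cells stood at 312 CPM of Gzmb against 1292 in the other GFI1 KO members, so leaving them out raises the ratio by itself. Zeb2 (0.663, 0.559 to 0.785), Itga4 (0.529) and Entpd1 (0.407) were still lower, Zeb2 and Itga4 by less than 2-fold. Gzmm fell short of 2-fold at 1.40 (0.913 to 2.11). Tcf7 and Ccr7 were then lower, at 0.535 and 0.512.

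The antibody tags gave another measure of proteins on the same cells. The KLRG1 tag reached 30 UMIs on 34.7% of GFI1 KO members (25.4% to 45.0%) and on 50.4% of GFI1 WT members (41.3% to 59.5%), with medians of 1.5 and 32 UMIs. Fewer than 1% of CD8 T cells with none of the 6 genes reached it (0.541% and 0.117%). The tag followed the RNA, since it was reached by 23 of 25 GFI1 KO and 39 of 50 GFI1 WT members with a Klrg1 UMI (92% and 78%), against 15.1% and 32% of those without. The GFI1 KO members that entered through Gzmb and Fasl alone, which have no Klrg1 UMI by definition, had the KLRG1 tag on 0 of 26 cells, and the other members on 34 of 72 in GFI1 KO (47.2%) and 62 of 118 in GFI1 WT (52.5%).

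CD127, the protein of Il7r, reached 30 UMIs on 15.3% of GFI1 KO (8.83% to 24.0%) and 1.6% of GFI1 WT members (0.194% to 5.66%), with medians of 12.5 and 7. In CD8 T cells with none of the 6 genes these shares were 16.2% and 3.96%, although 97.3% and 96.2% of those cells had an Il7r UMI. The tag had medians of 18 and 14 UMIs there, so the cutoff of 30 missed most cells with the RNA. The NK1.1 tag marks NK cells. It was reached by 0 of 98 GFI1 KO members (upper 95% limit 3.69%) and by 6.4% of GFI1 WT members. In NK cells the shares were 91.4% and 48.3%. CD4 was reached by 0 and 2.4% of members. CD11b was reached by 16.3% and 10.4% and CD11c by 16.3% and 14.4%, both above the CD8 T cells with none of the 6 genes (1.62% and 0.699% for CD11b, 2.16% and 1.17% for CD11c). CD45 was reached by all members, with medians of 1029 and 832, and CD8a had medians of 342 and 255. Tags differed in background between the libraries, with medians of 3 and 8 for CD196 in the members and of 5 and 2 for CD11b in B cells. The isotype control RTK2758 had medians of 1 and 2 in the members.

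**Figure D5:**
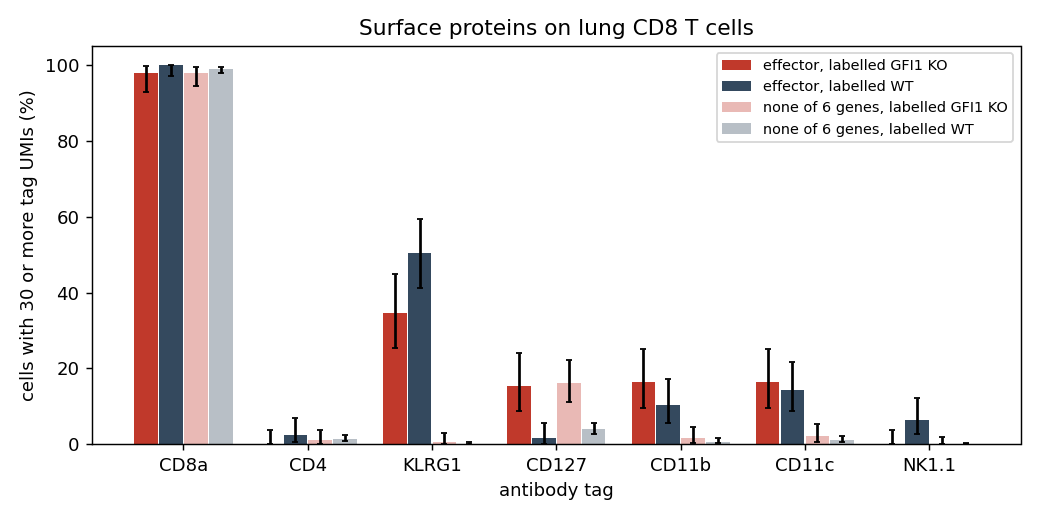
Percent of cells with at least 30 UMIs of an antibody tag (y axis) for 7 tags (x axis) in the members and, in pale bars, in CD8 T cells with none of the 6 genes, by label; bars are shares and whiskers are 95% Clopper-Pearson intervals. KLRG1 is lower in GFI1 KO (34.7% against 50.4%), CD127 is higher (15.3% against 1.6%), and CD8a is near 100% under both labels.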

How the data were processed

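The deposited matrices held raw counts, in whole UMIs, of 33696 genes and 18 antibody tags for 10700 GFI1 KO and 19515 GFI1 WT barcodes. The submitters' processing notes name Cell Ranger 9.0.1 and the mouse build GRCm39 (mm39), and the authors' cell filters were applied again. The deposited barcodes held 116825535 and 162599284 gene UMIs. Counts were summed over members and divided by all gene UMIs except 9535 ribosomal, mitochondrial and Gm- genes (544907 and 737345 UMIs). With 1 library per genotype no test was run. Shares have exact binomial, levels exact Poisson and ratios exact conditional intervals at 95%, and share differences square-and-add intervals. Only the ratio intervals were tried on simulated data. These were Poisson sums, the model that the intervals assume, without the clustering of UMIs in single cells. Genes were named from 23 lists of 271 genes (1 not in the files). Added were 15 genes with the highest lower and 15 with the lowest upper 95% limits of the ratio, among genes with 50 UMIs. Members, lists and comparisons were chosen with earlier results of these data known. Python 3.11.15, numpy 2.4.6, scipy 1.17.1, pandas 2.3.3, scanpy 1.11.5 (Scrublet) and matplotlib 3.10.9 were used. Doublets were kept, and left out only as an alternative. Other alternatives changed the gates, the denominator, the UMI floor and the weight of cells. RefSeq promoters on GRCm38.p6 matched 3 of 3 genes looked up. Some listed genes are counted in these groups but not reported here by name.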

Additional observations from a re-analysis of the deposited data

How the results depend on the processing

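No paired analysis was possible because each genotype had 1 library, and for the same reason no replicate could be left out. The share of effector cells among CD8 T cells was higher in GFI1 KO under all 10 alternatives, by 7.63 to 16.8 percentage points. It moved beyond its main value of 15.6 with at least 3 effector genes (7.63), after thinning to 1500 UMIs (8.06), and with cells of Gzmb and Fasl alone not counted (9.15, added after seeing the data). The number of genes past 2-fold (90 higher and 151 lower in GFI1 KO) depended on the UMI floor, with 184 and 284 at 30 UMIs and 41 and 54 at 100 UMIs, and was 54 higher after thinning. The other alternatives gave 73 to 129 higher and 115 to 201 lower. With all genes in the denominator the split was 73 higher and 200 lower, and the median log2 ratio moved by -0.09. Of 737 log2 ratios of the 53 named genes past 2-fold, 626 stayed within the interval of the main value, 103 left it with the same direction and 8 took the other direction. Zbtb16 had no GFI1 KO UMI with at least 3 effector genes (log2 ratio -1.31 with that label set to 3 UMIs) and a log2 ratio of -1.32 without cells of Gzmb and Fasl alone. Klra7 had 2.48 without cells with Cd79a, Ms4a1 or Ncr1, and Hspa1a -0.36 after thinning. Without cells with Klra4, Klra8 or Ncr1 (added after seeing the data) Tyrobp had 0.87, Fcer1g 0.90 and Irf8 0.15, and Klra7, with no GFI1 WT UMI, 1.73 with that label set to 3 UMIs. Across these alternatives Klrc1 stayed between 1.70 and 2.15, Klrk1 between 0.98 and 1.51, Itga4 between -1.52 and -0.84 and Zeb2 between -1.32 and -0.40. A gene without a UMI in the members may be present at the level of 3 UMIs, 5.51 CPM in GFI1 KO and 4.07 in GFI1 WT. The exact upper 95% limit at 0 UMIs is somewhat higher, 6.77 CPM in GFI1 KO.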

Other observations

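Some listed checkpoint and migration genes, chosen after their values were seen, are not named above. Ctla4, an inhibitory receptor, stood at 237 CPM in GFI1 KO and 160 in GFI1 WT members (ratio 1.48, 95% interval 1.14 to 1.92), and Havcr2 (TIM-3) at 51.4 and 23.1 on 28 and 17 UMIs. Cxcr4, the receptor for CXCL12, was lower, at 284 and 418 (0.681, 0.558 to 0.829). Cd44, a hyaluronan receptor of activated T cells, stood at 248 and 174 (1.43, 1.11 to 1.83), and Il2rb, the IL-2 and IL-15 receptor chain, at 666 and 553 (1.20, 1.04 to 1.39).

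GFI1 works with LSD1 (Kdm1a), CoREST (Rcor1) and histone deacetylases. Kdm1a stood at 80.7 and 103 (0.783, 0.528 to 1.15), Hdac1 at 86.3 and 123 (0.699, 0.481 to 1.00) and Rcor1 at 51.4 and 86.8 (0.592, 0.366 to 0.937). Scart2, a relative of Scart1, had 35 UMIs in 11 GFI1 KO members and 2 UMIs in 2 GFI1 WT members. A tag named PE_Streptavidin2, whose target the labels do not give, reached 30 UMIs on 31.6% of GFI1 KO and 53.6% of GFI1 WT members, and on 11.9% and 39.4% of CD8 T cells with none of the 6 genes.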
